A study of Mus musculus with 12 samples.

Results

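The genes described are 10 components of the Notch pathway: the receptors Notch1, Notch2 and Notch3, the ligands Dll1, Dll3 and Jag1, and the target genes Hes1, Hes5, Hey1 and Nrarp. They were taken by gene symbol out of 18193 genes with a probe set of a single symbol, and every such probe set of theirs is described, 17 in all. Expression was measured on 12 arrays of total RNA from mouse brain cells of the BL6 strain, all p53-/-, prepared from embryonic day 14.5 telencephalon. The 6 groups of 2 arrays are NSCL61, neural stem cells carrying HRasL61, and their parent NSC; OPCL61, oligodendrocyte precursor cells carrying HRasL61, and their parent OPC; and ASTL61, astrocytes carrying HRasL61, and their parent AST. HRasL61 is an oncogenic form of the small GTPase HRas. Per the series design text it was brought in with EGFP on a plasmid (pCMS-EGFP-HRasL61) together with pBabe-neo by electroporation, followed by selection in neomycin (0.5 mg/ml) and flow cytometry for GFP-positive cells. No such steps are given for the parents, so HRasL61 and selection cannot be told apart. Per the labels' protocols, NSC grew as floating spheres without serum, AST were induced from them with 10% serum over 3 weeks, and OPC were NSC cultured with PDGFAA, bFGF and little serum (0.25%) before immunopanning. The labels do not say whether the 2 arrays of a group came from separate cultures, so the p-values measure the spread between these arrays, which may be technical.

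Notch receptors sit on the cell surface and are activated by Delta and Jagged ligands on neighbouring cells. Cleavage then frees the intracellular domain, which enters the nucleus and joins the DNA-binding protein RBPJ and a Mastermind coactivator to switch on Hes and Hey genes, whose products repress differentiation factors. Nrarp is a target that acts back on the pathway as an inhibitor. In the brain, Notch signalling is known for keeping neural stem cells undifferentiated and for holding oligodendrocyte precursors back from maturing.

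Promoter windows of the genes, from 250 bases before to 50 after the gene start, were available from RefSeq (GRCm38.p6) for 8 of the 10 genes, in 9 windows. Hes1 and Hey1 have no window in the table used. The RBPJ motif was searched as GTGGGAA on both strands, and 6.38% of 32851 such windows in the mouse table hold a match. Of the 8 genes only Hes5 had a match to GTGGGAA, with 2 of them, and the shorter core TGGGAA, present in 25.6% of all windows and contained in the longer motif, gave no further match. The windows of Hes5, Nrarp and Dll3 are shown because these 3 genes had the smallest adjusted p among the 10 in OPCL61 against OPC. Capitals mark GTGGGAA or its reverse complement. The Hes5 window lies at chr4:154960673-154960972 on the plus strand, with matches from -226 to -220 and from -83 to -77 relative to the start. The Nrarp window lies at chr2:25180508-25180807 on the plus strand and the Dll3 window at chr7:28301736-28302035 on the minus strand. A match describes letters only and is not evidence of binding.
Hes5: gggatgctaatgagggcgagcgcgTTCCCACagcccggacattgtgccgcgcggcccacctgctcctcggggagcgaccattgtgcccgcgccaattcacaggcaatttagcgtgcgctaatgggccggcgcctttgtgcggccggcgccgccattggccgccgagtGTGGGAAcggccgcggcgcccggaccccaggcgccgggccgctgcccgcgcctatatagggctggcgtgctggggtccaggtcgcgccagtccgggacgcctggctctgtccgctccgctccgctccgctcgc
Nrarp: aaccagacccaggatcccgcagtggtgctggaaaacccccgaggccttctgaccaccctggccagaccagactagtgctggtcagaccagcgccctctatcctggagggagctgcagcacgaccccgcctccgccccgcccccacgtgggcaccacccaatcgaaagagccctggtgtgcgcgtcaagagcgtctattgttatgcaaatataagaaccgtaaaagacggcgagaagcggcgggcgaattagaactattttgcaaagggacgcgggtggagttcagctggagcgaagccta
Dll3: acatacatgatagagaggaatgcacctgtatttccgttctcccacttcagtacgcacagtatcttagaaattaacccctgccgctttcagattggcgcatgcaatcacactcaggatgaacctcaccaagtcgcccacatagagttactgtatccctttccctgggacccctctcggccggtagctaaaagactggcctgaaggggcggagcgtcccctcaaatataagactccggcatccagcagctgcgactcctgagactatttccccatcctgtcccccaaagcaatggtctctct

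The values are log2 signals per probe set. The median of all values was 5.183, and a probe set was tested if the mean of any group exceeded it, which 15 of the 17 did. The other probe set of Notch2 (1451889_at, 4.30 to 4.87 on all arrays) and of Notch3 (1421964_at, 3.87 to 5.26) did not. Where a gene has several tested probe sets, the brightest on average counts for it, and a signal under 5.183 may be background. The arrays were alike in scale, with medians between 5.157 and 5.211. The SD over genes of the difference between the 2 arrays of a group was 0.193 in NSCL61 and 0.416 in NSC, 0.415 in OPCL61 and 0.282 in OPC, and 0.372 in ASTL61 and 0.253 in AST. In bulk RNA, fewer expressing cells and less RNA per cell cannot be told apart.

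Marker genes did not bear out every label. Of 8 neural stem cell markers 4 had a mean above 5.183 in NSC, and the list's mean level was 5.12 and 5.43 on the NSC arrays, against 7.72 and 7.82 on the NSCL61 arrays. Pericyte and fibroblast markers stood at a mean of 9.35 and 9.91 in NSC, 7.27 and 7.72 in AST and 4.44 and 4.52 in OPC. Not all members of that list were high: Kcnj8 and Anpep were below 5.183 in NSC and AST, and Thy1, Rgs5 and Lum in AST. Rgs5 had 7.57 and 4.85 on the NSC arrays. OPC carried all 7 oligodendrocyte precursor markers above 5.183, with a list mean of 10.51 and 10.86, though Sox10 averaged 6.15 to 6.44 in every group. Of 8 astrocyte markers, 5 were above 5.183 in AST and 6 in OPC, and Aqp4, Slc1a2 and Aldh1l1 were below it in AST. Of the 5 in AST, S100b (5.19), Aldoc (5.52) and Gfap (5.57) were close to 5.183, and Slc1a3 and Gja1 averaged 6.58 and 11.74. Endothelial markers were above it for 2 of 8 in every group, and microglia markers for 1 of 7.

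**Figure D1:**
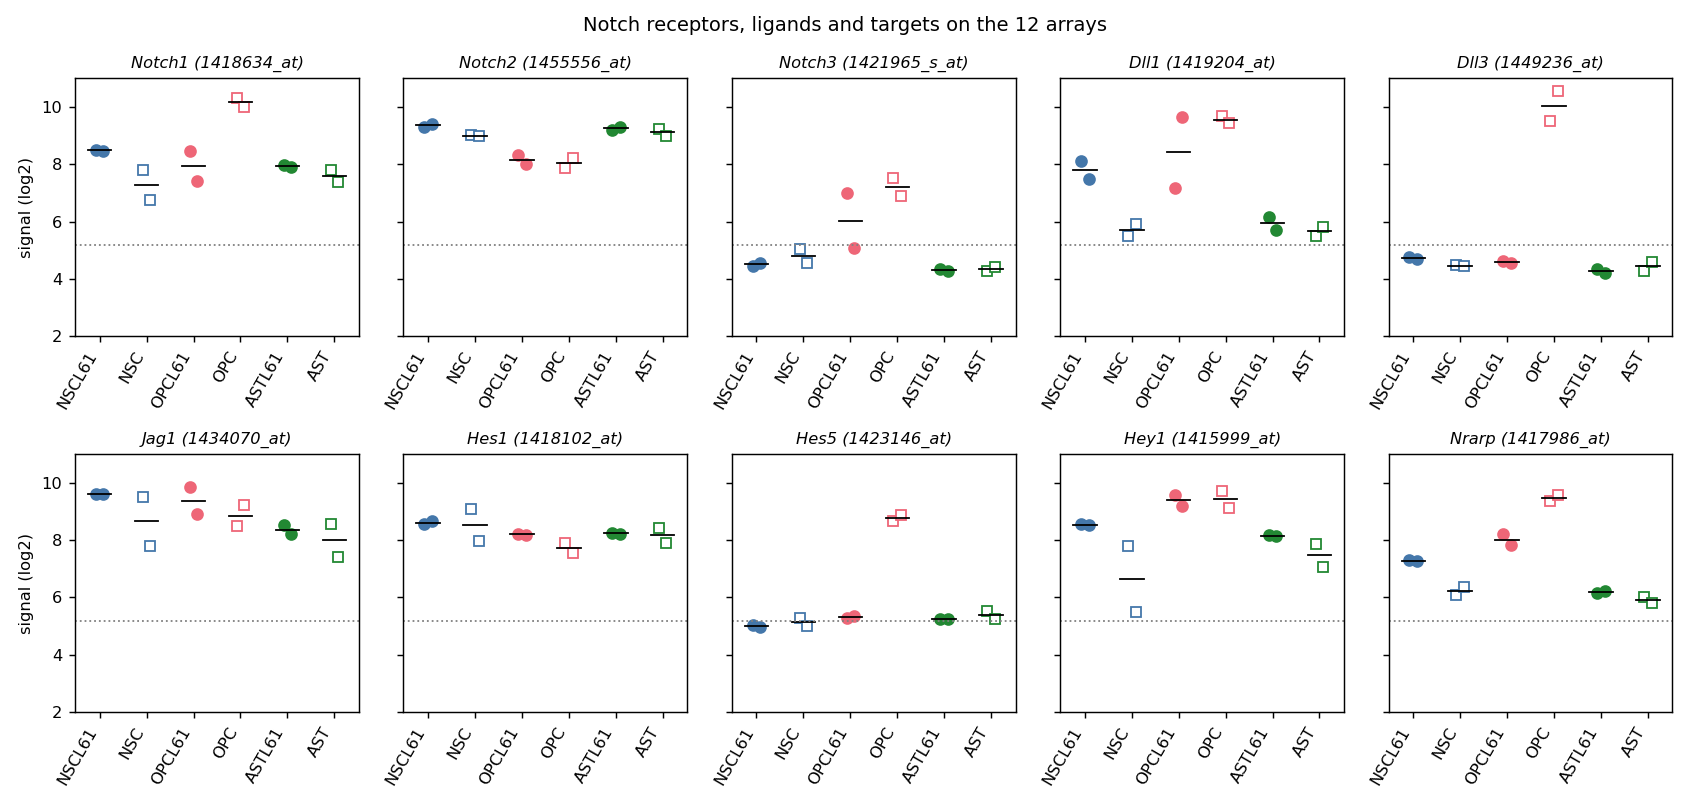
Log2 signal of the 10 genes (y axis) on the 12 arrays, by group (x axis), with the counting probe set in each panel title. Filled circles are HRasL61 lines, open squares parents, short bars group means, and the dotted line the median of all values (5.183). Dll3 and Hes5 stand far above the line in OPC and lie near or under it in the other 5 groups.

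OPCL61 was set against OPC to see what differs in oligodendrocyte precursors carrying HRasL61. Hes5, Dll3, Notch1 and Nrarp fell in OPCL61, and no member rose by limma. These 4 of 10 genes, all lower, stand against 48.2% of all 12835 genes called in this comparison, 24.3% higher and 23.9% lower. At an unadjusted p under 0.05, 5 of the 10 genes differed. The median change of the 10 was -1.16 (log2), against 0.05 over all genes. Notch2, Notch3, Dll1, Jag1, Hes1 and Hey1 did not pass.

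Among the targets, Hes5, a basic helix-loop-helix repressor that carries much of the Notch response in neural progenitors, had signals of 5.27 and 5.35 in OPCL61, against 8.66 and 8.87 in OPC. The groups lie far apart, and the OPCL61 arrays sit just above the median of all values. The log2 difference was -3.46 ± 0.14 (SE, n = 2 each), or 0.0911 times the OPC signal (limma, Benjamini-Hochberg adjusted p = 1.76e-07). Its other probe set, 1456010_x_at, gave 4.01 and 5.05 in OPCL61, against 9.62 and 10.00 in OPC, a difference of -5.27 ± 0.28 (limma adjusted p = 7.53e-07). Both probe sets put Hes5 near background in OPCL61, so either size may be a lower bound.

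Nrarp, the feedback inhibitor, had 8.21 and 7.82 in OPCL61, against 9.36 and 9.58 in OPC, a difference of -1.45 ± 0.16 (limma adjusted p = 7.90e-05). Unlike Hes5, it stayed well above the median of all values in the line. Its other probe set, 1417985_at, had 8.21 and 7.66 in OPCL61, against 9.81 and 9.57 in OPC, and differed by -1.75 ± 0.26 (limma adjusted p = 0.000484). Hes1, a repressor that responds to other signals as well as to Notch, had 8.23 and 8.17 in OPCL61, against 7.88 and 7.54 in OPC. Those arrays do not overlap and OPCL61 is the higher, but the difference of 0.49 ± 0.31 did not pass (limma adjusted p = 0.218). Hey1, a repressor of the related Hey family, had 9.58 and 9.21 in OPCL61, against 9.70 and 9.13 in OPC, with overlapping arrays and a difference of -0.02 ± 0.59.

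Among the ligands, Dll3, a divergent Delta protein that does not activate receptors on neighbouring cells, showed the largest difference of the 10 genes in OPCL61. It had 4.63 and 4.57 in OPCL61, against 9.53 and 10.58 in OPC, a difference of -5.45 ± 0.27 (limma adjusted p = 4.80e-07). The OPCL61 signals lie under 5.183, so the size may be a lower bound. Dll1, a Delta ligand that activates Notch on neighbouring cells, had 7.19 and 9.65 in OPCL61, against 9.68 and 9.45 in OPC. The second OPCL61 array lies within the OPC range while OPCL61 replicate 1 lies far below it, and the difference of -1.14 ± 0.62 did not pass (limma adjusted p = 0.155). Without OPCL61 replicate 2 it was -2.38 (adjusted p = 0.000458), and without OPCL61 replicate 1 it was 0.09 (adjusted p = 0.84). Jag1, the Jagged ligand, had 9.85 and 8.91 in OPCL61, against 8.48 and 9.23 in OPC, with overlap and a difference of 0.53 ± 0.56.

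Among the receptors, Notch1 had 8.46 and 7.41 in OPCL61, against 10.32 and 10.02 in OPC, a difference of -2.23 ± 0.37 (limma adjusted p = 0.000874). Both OPCL61 arrays lie below both OPC arrays, and its other probe set, 1418633_at, differed by -1.30 ± 0.20 (limma adjusted p = 0.000573). Notch3, a receptor best known from the mural cells of vessels, had 6.99 and 5.09 in OPCL61, against 7.53 and 6.89 in OPC, and the difference of -1.18 ± 0.49 did not pass (limma adjusted p = 0.071). The OPCL61 arrays are far apart here in the opposite sense to Dll1: without OPCL61 replicate 1 the Notch3 difference was -2.13 (adjusted p = 0.000348), and without OPCL61 replicate 2 it was -0.23 (adjusted p = 0.546). Notch2 had 8.32 and 8.02 in OPCL61, against 7.87 and 8.22 in OPC, with a difference of 0.13 ± 0.16.

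Oligodendrocyte precursor markers moved with these genes: of 7 tested, 6 were lower in OPCL61 and none higher. Their mean level was 6.56 and 7.04 on the OPCL61 arrays, against 10.51 and 10.86 on the OPC arrays. All 7 were above 5.183 in OPC and 6 in OPCL61, with Gpr17 below it. A level above 5.183 need not mean expression here. Sox10 averaged 6.15 to 6.44 in all 6 groups, and Cspg4 averaged 6.34 in both OPCL61 and NSCL61. Astrocyte markers moved as well, with a list mean of 6.47 and 6.64 in OPCL61, against 7.94 and 8.30 in OPC, 4 of 7 tested markers lower and 1 higher, and Aqp4 below 5.183 in OPCL61. Slc1a2 and Aldh1l1 were below it in both groups. Their part in the Notch gene differences was not tested.

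**Figure D2:**
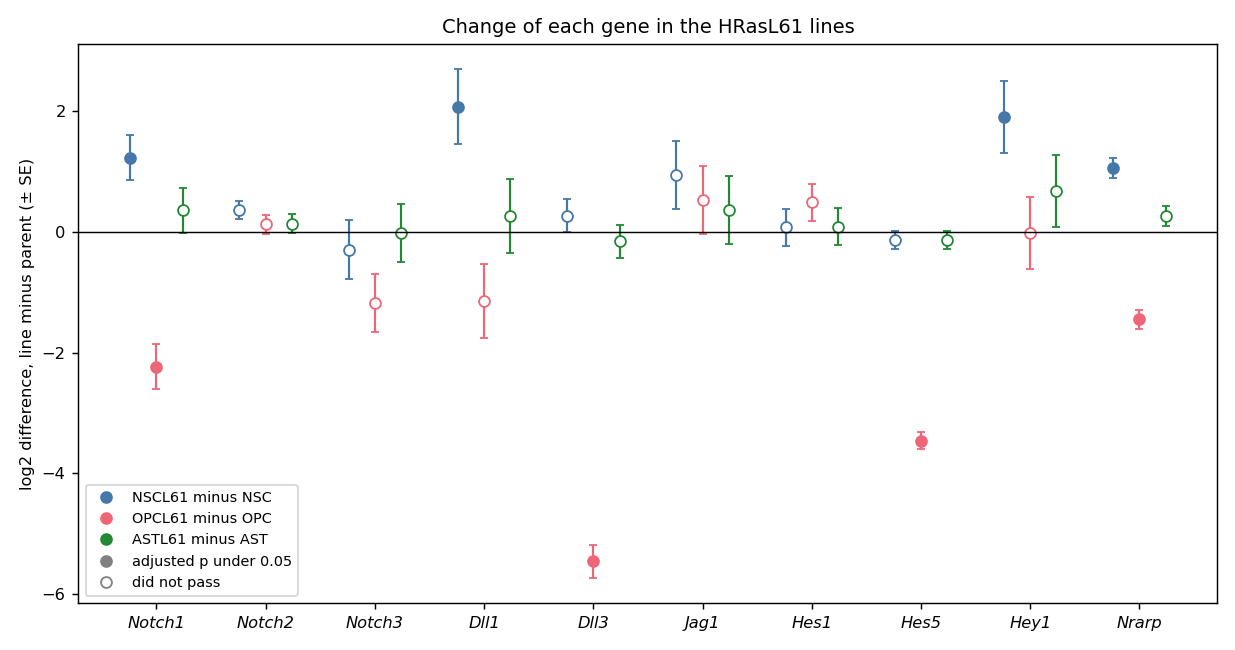
Log2 difference of each gene between each HRasL61 line and its parent (y axis; error bars are limma's SE, n = 2 arrays per group). Filled points passed an adjusted p of 0.05. Notch1 and Nrarp lie above 0 in NSCL61 and below 0 in OPCL61.

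The comparison of NSCL61 with NSC asks the same of cells labelled as neural stem cells. Nrarp, Dll1, Notch1 and Hey1 rose in NSCL61 and no member fell by limma. These 4 of 10 genes stand against 37.4% of all genes called, 20.5% higher and 16.9% lower, and 5 of the 10 had an unadjusted p under 0.05. The median change of the 10 was 0.66 (log2), against 0.04 over all genes. The other 6 genes did not pass.

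Nrarp had 7.29 and 7.28 in NSCL61, against 6.08 and 6.36 in NSC, a difference of 1.06 ± 0.16 (limma adjusted p = 0.00086). Its probe set 1417985_at had 6.89 and 6.80 in NSCL61, against 5.14 and 4.37 in NSC, and differed by 2.09 ± 0.26 (limma adjusted p = 0.000265). The NSC arrays lie under 5.183 on that probe set, and the groups are apart on both. Dll1 had 8.12 and 7.48 in NSCL61, against 5.52 and 5.93 in NSC, a difference of 2.08 ± 0.62 or 4.22-fold (limma adjusted p = 0.0251). Leaving out any of the 4 arrays in this comparison took the adjusted p of Dll1 past the threshold, to 0.0548 to 0.145, with differences of 1.76 to 2.40.

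Notch1 had 8.52 and 8.47 in NSCL61, against 7.79 and 6.75 in NSC, a difference of 1.23 ± 0.37 (limma adjusted p = 0.0277), and its probe set 1418633_at rose as well, by 0.71 ± 0.20 (limma adjusted p = 0.0205). Hey1 had 8.56 and 8.53 in NSCL61, against 7.80 and 5.48 in NSC, a difference of 1.90 ± 0.59 (limma adjusted p = 0.0309). Both NSCL61 arrays lie above both NSC arrays for these genes, but NSC replicate 2 is far below NSC replicate 1. Without NSC replicate 2 the differences were 0.71 for Notch1 (adjusted p = 0.194) and 0.74 for Hey1 (adjusted p = 0.137), and without NSC replicate 1 they were 1.75 (adjusted p = 0.0073) and 3.06 (adjusted p = 0.000244). Leaving out either NSCL61 array also ended both calls.

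Jag1 shared that split of the NSC arrays, with 9.61 on both NSCL61 arrays, against 9.51 and 7.80 in NSC, and a difference of 0.95 ± 0.56 that did not pass (limma adjusted p = 0.224). Without NSC replicate 1 it was 1.80 (adjusted p = 0.0283), and without NSC replicate 2 it was 0.09 (adjusted p = 0.922). The other Jag1 probe sets, 1421106_at and 1421105_at, differed by 1.12 ± 0.57 and 0.39 ± 0.20 and did not pass. Hes1 had 8.56 and 8.65 in NSCL61, against 9.07 and 7.98 in NSC, with the NSCL61 arrays lying between those of NSC. Notch2 had 9.31 and 9.41 in NSCL61, against 9.02 and 8.99 in NSC, a difference of 0.36 ± 0.16 (limma adjusted p = 0.10). Hes5 had 5.05 and 4.96 in NSCL61, against 5.28 and 5.00 in NSC, and Dll3 had 4.78 and 4.70, against 4.50 and 4.45. Notch3 had 4.45 and 4.57 in NSCL61, against 5.06 and 4.56 in NSC. These 3 genes were near or under the median of all values on all 4 arrays.

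Marker lists of other cells moved in this comparison too. Pericyte and fibroblast markers had a mean level of 4.99 and 5.05 in NSCL61, against 9.35 and 9.91 in NSC, with 4 of 11 above 5.183 in NSCL61 and 9 of 11 in NSC. Of 8 neural stem cell markers 6 were higher in NSCL61 and none lower, with a median difference of 2.28, and all 8 were above 5.183 in NSCL61 against 4 in NSC. Of 7 oligodendrocyte precursor markers 4 were lower and none higher, with a list mean of 4.97 and 4.98 in NSCL61, against 6.10 and 6.21 in NSC, and Olig1, Olig2 and Gpr17 below 5.183 in both groups. Their part in the rises was not tested. Notch3, under 5.183 on both NSC arrays, is not in the pericyte and fibroblast list, and its level was not used to judge those markers.

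For ASTL61 against AST, which asks the same of cells labelled as astrocytes, none of the 10 genes passed by limma. None had an unadjusted p under 0.05, and their differences ran from -0.16 for Dll3 to 0.68 for Hey1. Only 0.0234% of all genes, 3 of 12835, were called in this comparison, all higher, and the count of 0 of 10 is near that background. Notch1 had 7.99 and 7.91 in ASTL61, against 7.80 and 7.38 in AST. Nrarp had 6.16 and 6.22 in ASTL61, against 6.03 and 5.82 in AST, a difference of 0.27 ± 0.16 (limma adjusted p = 0.827). Hey1 had 8.18 and 8.14 in ASTL61, against 7.88 and 7.08 in AST, a difference of 0.68 ± 0.59 (limma adjusted p = 0.88). On these probe sets the ASTL61 arrays lie above those of AST, without passing, but on the other probe set of Notch1 (1418633_at, 0.15 ± 0.20) and of Nrarp (1417985_at, -0.03 ± 0.26) the arrays overlap. Dll1, Hes1, Hes5, Jag1, Notch2, Notch3 and Dll3 had overlapping arrays. Pericyte and fibroblast markers had a list mean of 8.09 and 8.50 in ASTL61, against 7.27 and 7.72 in AST. Of 8 astrocyte markers 4 were above 5.183 in ASTL61 and 5 in AST. No tested marker of either list passed between ASTL61 and AST.

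Whether the changes differed between lines was tested as a difference of differences. The change in OPCL61 was below that in NSCL61 for Hes5, Dll3, Nrarp, Notch1 and Dll1, 5 of 10 genes, against 37.4% of all genes called, 17.7% higher and 19.7% lower. Hes5 and Dll3 were near or under 5.183 in NSC and AST, where a fall could hardly show. Their differences between lines thus mostly restate their falls in OPCL61. For Nrarp the changes were -1.45 in OPCL61 and 1.06 in NSCL61, a difference of -2.51 ± 0.23 (limma adjusted p = 3.54e-05). For Notch1 they were -2.23 and 1.23, a difference of -3.46 ± 0.53 (limma adjusted p = 0.000794). Nrarp and Notch1 thus passed in both comparisons with opposite signs, and the share of all genes that did so is not given here. The rise of Nrarp in NSCL61 held with each array left out. That of Notch1 was lost without either NSCL61 array and without NSC replicate 2, where it was 0.71. For Dll1 the difference was -3.22 ± 0.87 (limma adjusted p = 0.0169), and it was -2.90 without NSCL61 replicate 1 (adjusted p = 0.0626) and -3.10 without OPC replicate 1 (adjusted p = 0.0511). Single arrays also added a gene: Hey1 passed without NSC replicate 1 (-3.09, adjusted p = 0.000832), Hes1 without NSC replicate 2 (0.96, adjusted p = 0.0328) and Notch3 without OPCL61 replicate 1 (-1.83, adjusted p = 0.00426). Between OPCL61 and ASTL61, 4 of 10 changes were lower in OPCL61 (35% of all genes called, 16.9% higher and 18.1% lower): Hes5, Dll3, Nrarp and Notch1. There Notch3 passed too without OPCL61 replicate 1 (-2.11, adjusted p = 0.00219), and Dll1 without OPCL61 replicate 2 (-2.64, adjusted p = 0.00169). Between ASTL61 and NSCL61, Nrarp alone passed (24.7% of all genes called, 12.1% higher and 12.6% lower), with a difference of -0.80 ± 0.23 (limma adjusted p = 0.0331). That call did not hold when NSC replicate 1 or any array of NSCL61, AST or ASTL61 was left out (adjusted p = 0.054 to 0.108), and Dll1 passed beside it when either OPCL61 array was left out (-1.81). Hey1 passed without NSC replicate 1 (-2.38, adjusted p = 0.00507). The other Nrarp probe set, 1417985_at, gave a larger difference between ASTL61 and NSCL61, -2.12 ± 0.37 (limma adjusted p = 0.00326).

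The parents were compared to see where the genes stood before HRasL61. OPC stood apart: Notch1, Notch3, Dll1, Dll3, Hes5, Hey1 and Nrarp were higher in OPC than in NSC and also higher than in AST. Against NSC, 7 of 10 genes were higher in OPC and 2 lower, where 51.1% of all genes were called, 27.1% higher and 24.1% lower. Against AST, 7 were higher and 1 lower, where 51.2% were called, 25.9% higher and 25.2% lower. Both comparisons use the same OPC arrays. The median difference of the 10 genes was 2.84 against NSC and 2.72 against AST (log2), beside -0.01 and -0.06 over all genes. Marker lists differed between the parents as well. Pericyte and fibroblast markers had a list mean of 9.35 and 9.91 in NSC and 7.27 and 7.72 in AST. They stood at 4.44 and 4.52 in OPC. Neural stem cell markers had 5.12 and 5.43 in NSC, 6.55 on both AST arrays, and 7.55 and 7.58 in OPC. The part of these lists in the Notch gene differences was not tested.

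Hes5 had 8.66 and 8.87 in OPC, against 5.28 and 5.00 in NSC and 5.53 and 5.25 in AST. The differences were 3.63 ± 0.14 from NSC (limma adjusted p = 5.73e-08) and 3.38 ± 0.14 from AST (limma adjusted p = 1.14e-07). Dll3 had 9.53 and 10.58 in OPC, against 4.50 and 4.45 in NSC and 4.29 and 4.60 in AST, and was 47.9-fold and 48.8-fold higher in OPC. With NSC and AST signals of both genes near or under 5.183, these may be lower bounds. Nrarp had 9.36 and 9.58 in OPC, against 6.08 and 6.36 in NSC and 6.03 and 5.82 in AST, with differences of 3.25 ± 0.16 and 3.54 ± 0.16. Dll1 was higher in OPC by 3.84 ± 0.62 and 3.89 ± 0.62, and Notch1 by 2.90 ± 0.37 and 2.58 ± 0.37. Notch3 was higher by 2.41 ± 0.49 against NSC and 2.87 ± 0.49 against AST, and Hey1 by 2.78 ± 0.59 and 1.94 ± 0.59. Against AST, Hey1 did not pass without OPC replicate 1 or without AST replicate 2. For each of these 7 genes, already called higher in both comparisons, both OPC arrays lie above all 4 arrays of NSC and AST. How many of all genes show this was not counted.

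Notch2 went the other way, with 7.87 and 8.22 in OPC, against 9.02 and 8.99 in NSC and 9.23 and 9.01 in AST. It was lower in OPC by limma against both (-0.96 ± 0.16, adjusted p = 0.000681, and -1.08 ± 0.16, adjusted p = 0.000339). Hes1 had 7.88 and 7.54 in OPC, against 9.07 and 7.98 in NSC and 8.42 and 7.90 in AST. It passed against NSC (-0.82 ± 0.31, limma adjusted p = 0.0484), a call lost when any array other than NSC replicate 2 was left out, and did not pass against AST (-0.45 ± 0.31, limma adjusted p = 0.248). Jag1 passed in neither. AST and NSC did not differ by limma in any of the 10 genes, nor at an unadjusted p under 0.05, while 29.8% of all genes were called, although Hey1 passed without NSC replicate 1 and Hes1 without NSC replicate 2. The differences, AST minus NSC, ran from -0.66 for Jag1 to 0.84 for Hey1.

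**Figure D3:**
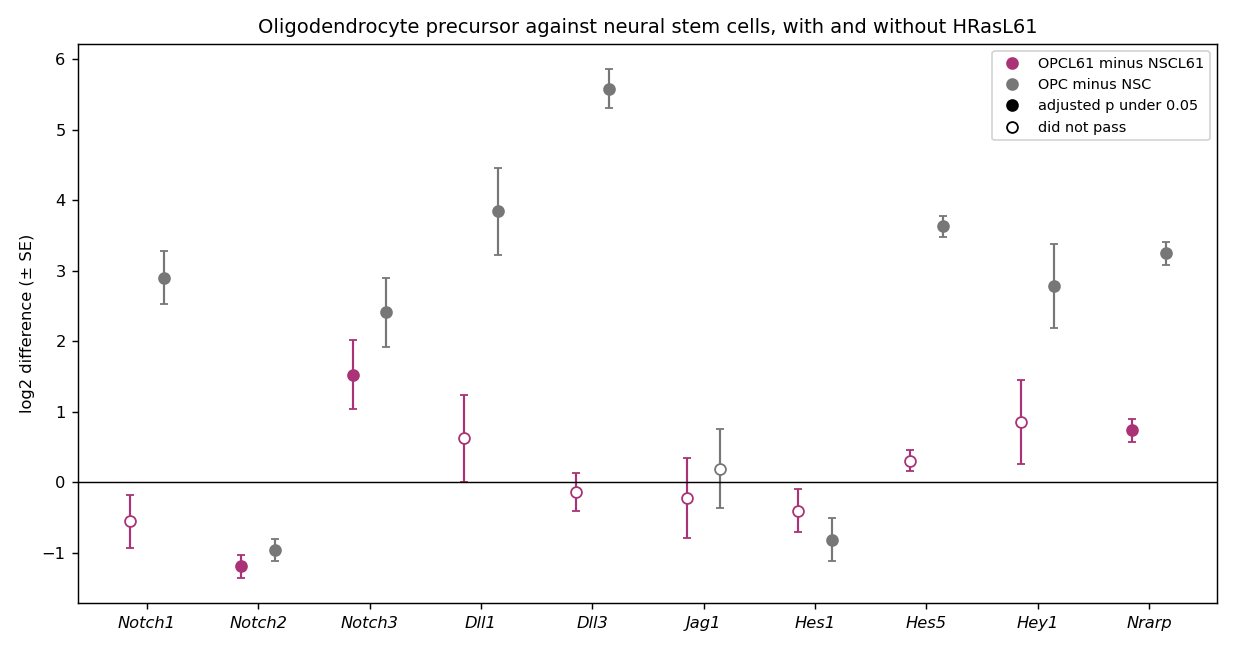
Log2 difference of each gene between the HRasL61 lines (OPCL61 minus NSCL61) and between their parents (OPC minus NSC), with limma's SE (n = 2 arrays per group). Filled points passed an adjusted p of 0.05. Between the parents 9 genes passed, and between the lines Notch2, Notch3 and Nrarp.

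The lines were also compared with each other. OPCL61 against NSCL61 gave 3 of 10 genes, against 25.7% of all genes called, 12.7% higher and 13% lower. Notch3 was higher in OPCL61 by 1.53 ± 0.49 (limma adjusted p = 0.0466) and Nrarp by 0.73 ± 0.16 (limma adjusted p = 0.0101), and Notch2 was lower by limma (-1.20 ± 0.16, adjusted p = 0.000657). The Notch3 call was lost when any array other than OPCL61 replicate 2 was left out, and the Nrarp call without either NSCL61 array or OPCL61 replicate 1. Dll3, at -0.14 ± 0.27, and Hes5, at 0.30 ± 0.14, did not pass between these lines. OPCL61 against ASTL61 gave 4 of 10 genes, against 35.8% of all genes called, 18.5% higher and 17.3% lower. Nrarp, Dll1 and Notch3 were higher in OPCL61, by 1.83 ± 0.16, 2.48 ± 0.62 and 1.71 ± 0.49, and Notch2 was lower (-1.09 ± 0.16). Dll1 did not pass without ASTL61 replicate 2, nor Notch3 without either ASTL61 array or OPCL61 replicate 1, and Hey1 passed too when either NSC array was left out. ASTL61 against NSCL61 gave 2 of 10, both lower, against 32.3% of all genes called, 15.9% higher and 16.4% lower: Nrarp (-1.09 ± 0.16, limma adjusted p = 0.000935) and Dll1 (-1.86 ± 0.62, limma adjusted p = 0.044). The Dll1 call held in none of the leave-outs of an array other than those of OPCL61, and Dll3 passed when either OPC array was left out.

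Over the 6 groups, the order of the mean levels of Nrarp ran OPC, OPCL61, NSCL61, NSC, ASTL61 and AST, at 9.47, 8.02, 7.28, 6.22, 6.19 and 5.92. All neighbours in that order had arrays apart, except NSC and ASTL61. On the other Nrarp probe set, 1417985_at, OPC, OPCL61 and NSCL61 kept their order. There AST, ASTL61 and NSC, at 4.816, 4.788 and 4.755, overlapped under 5.183, so their order is not settled. For Notch1 the order ran OPC, NSCL61, ASTL61, OPCL61, AST and NSC, and from ASTL61 downward each neighbour overlapped the next. For Hey1 it ran OPC, OPCL61, NSCL61, ASTL61, AST and NSC, at 9.42, 9.39, 8.54, 8.16, 7.48 and 6.64, with overlap between OPC and OPCL61 and between AST and NSC. Dll1 ran OPC, OPCL61, NSCL61, ASTL61, NSC and AST, and its only neighbours without overlap were NSCL61 at 7.80 and ASTL61 at 5.94. Jag1 was highest in NSCL61 at 9.61 and lowest in AST, with every neighbour overlapping the next. Notch2 fell into 2 levels: the arrays of NSCL61, ASTL61, AST and NSC lay between 8.99 and 9.41, and OPCL61 and OPC averaged 8.17 and 8.04. Hes1 had the narrowest range of group means, 7.71 in OPC to 8.61 in NSCL61, among the 10 counting probe sets.

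**Figure D4:**
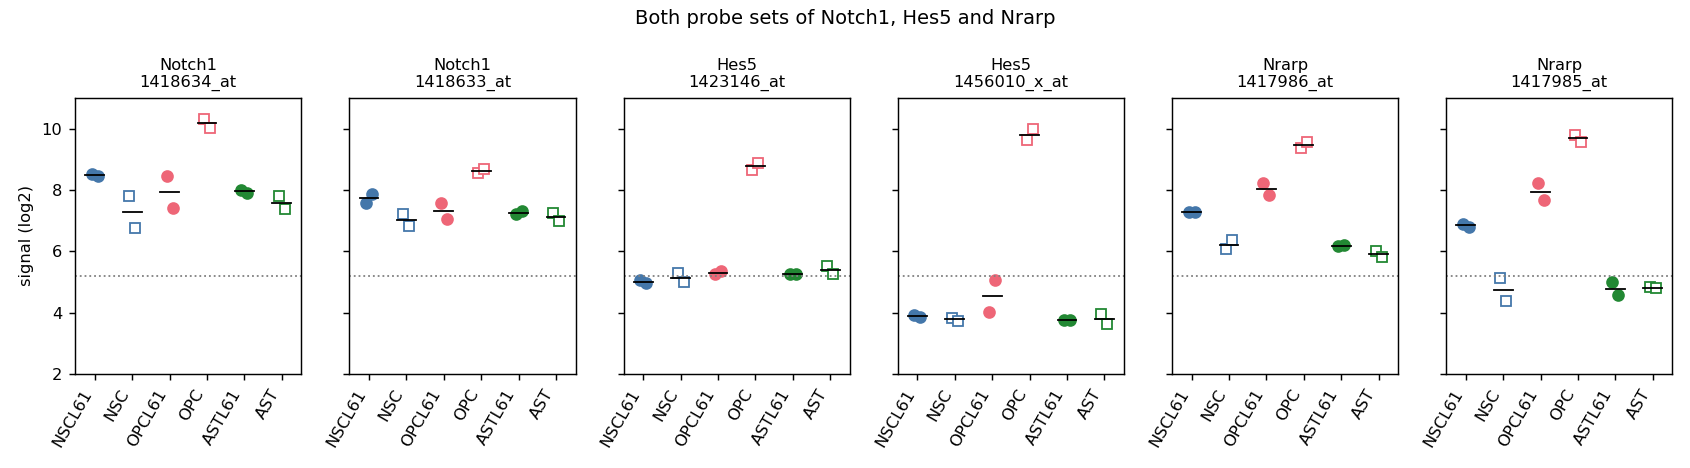
Log2 signal (y axis) of both probe sets of Notch1, Hes5 and Nrarp by group (x axis); filled circles are HRasL61 lines, open squares parents, bars group means and the dotted line the median of all values. OPC is highest on all 6 probe sets. Hes5 in OPCL61 lies at 5.31 on the first of its probe sets and 4.53 on the second.

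Genes with a pattern most like a member were found by Pearson's r over the 12 arrays among 12345 genes. This is a description, since arrays of a group are alike and OPC weighs heavily. Nearest to Dll3 were Lhfpl3 (r = 0.998), Omg (0.997) and St6gal2 (0.997), and nearest to Hes5 were Plpp4 (0.996), Slc13a3 (0.996) and the protocadherin Pcdh15 (0.996). All 6 were highest in OPC. Omg, the oligodendrocyte myelin glycoprotein, averaged 10.42 in OPC and between 6.08 and 6.18 in the other groups. Nearest to Nrarp were Fchsd2 (0.987), Abi2 (0.981) and Slc35f1 (0.980). Notch2 was most like Plin2, a lipid droplet coat protein (0.975), and Notch3 most like Selenbp1 (0.972). Jag1 and Hes1 had less close partners, led by Zfp790 (0.919) and Baalc (0.911). Notch1, Dll1 and Hey1 were led by Grip1 (0.971), Adcy8 (0.972) and Paf1 (0.956).

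The rest of the pathway was read from 8 lists of 80 other symbols, of which 59 were tested. In OPCL61 12 of them rose and 19 fell by limma, in NSCL61 11 rose and 12 fell, and in ASTL61 none passed, 3 having an unadjusted p under 0.05. That is 52.5% called in OPCL61 and 39% in NSCL61, near the 48.2% and 37.4% of all genes called in the same comparisons. Their median change was -0.08 in OPCL61, -0.10 in NSCL61 and -0.02 in ASTL61, beside 0.05, 0.04 and 0.00 over all genes.

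**Figure D5:**
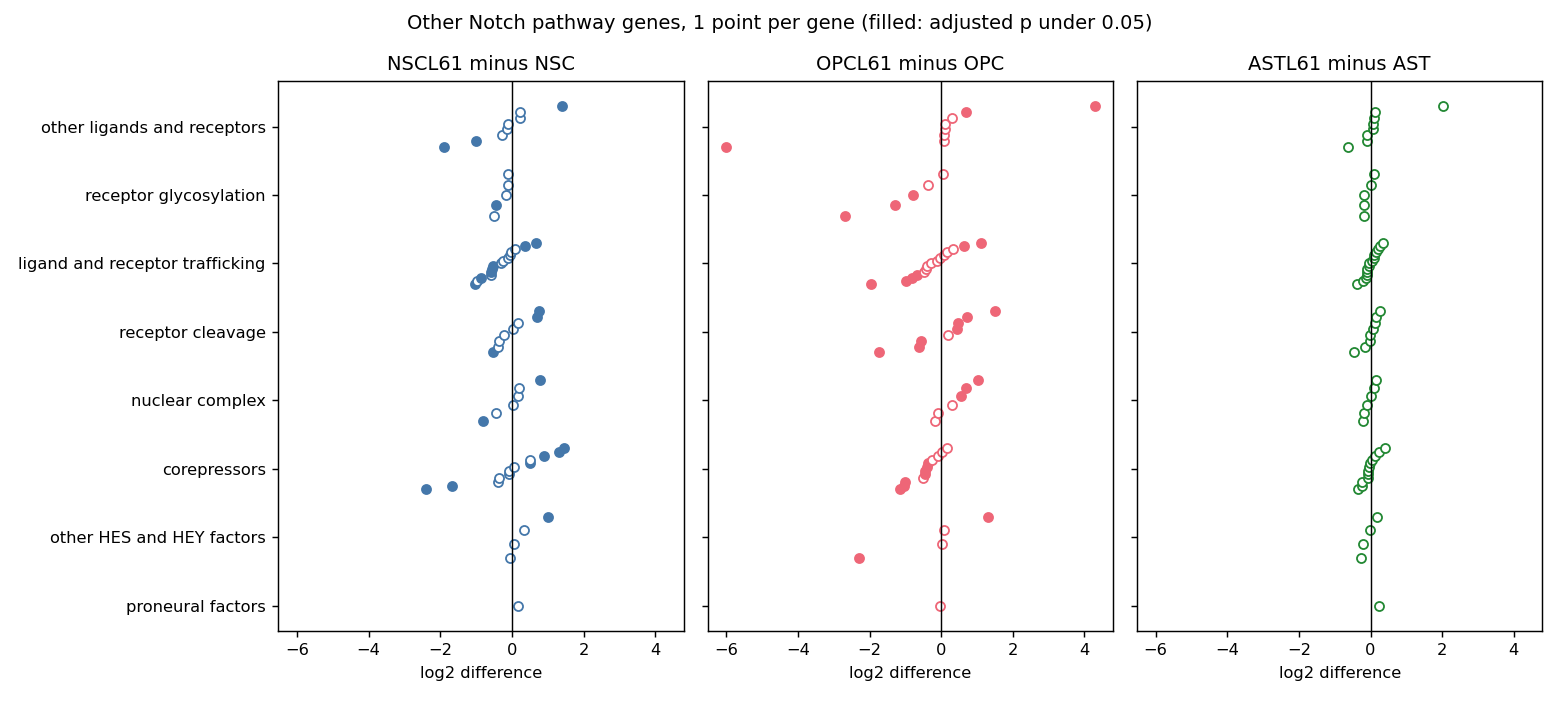
Log2 difference between each HRasL61 line and its parent (x axis) for 59 other Notch pathway genes by list (y axis), 1 point per gene, filled where the adjusted p was under 0.05. In ASTL61 no point is filled.

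The counts by list in OPCL61 are to be read against 24.3% of all genes called higher and 23.9% called lower. Among other ligands and receptors, 2 of 8 rose and 1 fell. Dlk1, a Delta-like protein without the domain that activates Notch, had 10.58 and 7.53 in OPCL61, against 4.82 and 4.72 in OPC, a rise of 4.29 ± 0.86 (limma adjusted p = 0.00263) that was 2.77 without OPCL61 replicate 1. Cntn1, a contactin reported as a Notch ligand on oligodendrocyte precursors, had 4.53 and 4.79 in OPCL61, against 10.29 and 11.04 in OPC, a fall of -6.01 ± 0.24 (limma adjusted p = 1.34e-07). The OPC signals of Dlk1 and the OPCL61 signals of Cntn1 lie under 5.183, so both sizes may be lower bounds, and other probe sets of Cntn1 had higher OPC signals, up to 13.39, with OPCL61 near 3.90. Among the glycosyltransferases that modify the receptors, 3 of 5 fell in OPCL61, the fringe genes Mfng (-2.70 ± 0.12), Lfng (-1.30 ± 0.22) and Rfng (-0.79 ± 0.15), and none rose. Among trafficking genes, 2 of 15 rose and 4 fell. Numb, which antagonises Notch, rose by 1.10 ± 0.13, and the Deltex genes Dtx3 (-0.81 ± 0.14) and Dtx1 (-0.98 ± 0.19) fell. The other gene of the list that rose is also a Deltex gene, Dtx2 (0.65 ± 0.20), named after its value was seen, and it did not pass without OPC replicate 1 or OPCL61 replicate 2.

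Of 8 receptor cleavage genes 4 rose and 3 fell in OPCL61. The protease gene Furin rose by 1.49 ± 0.14 and the secretase subunit gene Ncstn by 0.71 ± 0.12, and Aph1b, another secretase subunit gene, fell (-1.74 ± 0.16). Of 6 nuclear complex genes 3 rose, Rbpj by 1.03 ± 0.25, Maml1 by 0.69 ± 0.12 and Snw1 by 0.55 ± 0.13, and none fell. Rbpj encodes the DNA-binding partner of the receptor domain. It had 9.93 and 9.58 in OPCL61, against 8.60 and 8.85 in OPC (limma adjusted p = 0.00677). Of 12 corepressors 7 fell and none rose, Tle3 by -1.01 ± 0.16 and Tle4 by -1.03 ± 0.23 among them. Of these calls, only those of Tle3 and Tle4 did not depend on a single array. Hes6, a Hes protein known to counter Hes1, had 6.92 and 7.08 in OPCL61, against 9.35 and 9.23 in OPC, a fall of -2.29 ± 0.19 (limma adjusted p = 1.03e-05). Of the 4 tested genes of its list, Bhlhe40 rose by 1.30 ± 0.42, a call lost without either OPC array or OPCL61 replicate 1, where it was 0.47. Of the 31 calls, 20 held when each of the 4 arrays compared was left out in turn.

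In NSCL61, Rbpj and Hes6 moved the opposite way, and the counts by list stand against 20.5% of all genes called higher and 16.9% called lower. Rbpj fell there (-0.81 ± 0.25, limma adjusted p = 0.0291), with 9.68 and 9.67 in NSCL61, against 10.09 and 10.88 in NSC. That call was lost without NSC replicate 2 (-0.41, adjusted p = 0.199) and without either NSCL61 array, and on another Rbpj probe set the NSCL61 arrays (9.78 and 9.76) lie between those of NSC (9.62 and 10.29). The change in OPCL61 exceeded that in NSCL61 by 1.84 ± 0.35 (limma adjusted p = 0.00289). Hes6 rose by 0.99 ± 0.19 (limma adjusted p = 0.00275), and its change in OPCL61 differed from that in NSCL61 by -3.29 ± 0.27 (limma adjusted p = 1.61e-05). Among other ligands and receptors 1 of 8 rose, Dner by 1.41 ± 0.36, and 2 fell, Mfap2 (-1.89 ± 0.16) and Dlk2 (-1.01 ± 0.19). Of 12 corepressors 4 rose and 2 fell, with Tle1 at 1.46 ± 0.17, Ctbp2 at 1.33 ± 0.16 and Bend6 at -2.39 ± 0.46. Of 15 trafficking genes 2 rose and 5 fell, with Numbl at -0.86 ± 0.14. Numb was among those that rose, by 0.38 (limma adjusted p = 0.0484). Of these calls, only that of Numbl did not depend on a single array. Of 5 glycosyltransferase genes Rfng fell (-0.46 ± 0.15), and Mfng and Lfng, at -0.11 ± 0.12 and -0.16 ± 0.22, did not pass. Of 8 cleavage genes 2 rose and 1 fell, with Furin at 0.69 ± 0.14 and Adam17 at 0.75 ± 0.17. Of 6 nuclear complex genes Snw1 rose, by 0.78 ± 0.13, and Rbpj fell. Of the 23 calls in NSCL61, 9 held when each of the 4 arrays compared was left out in turn. Those of Dner (0.88), Adam17 (0.55) and Rfng (-0.33) were among the calls lost, with these values without NSC replicate 2. Of 7 proneural factors 1 could be tested, and it did not pass in any line. Notch4 lay between 3.34 and 4.34 on all arrays and probe sets and was not tested.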

How the data were processed

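Gene expression was measured on biotin-labelled arrays in 12 samples, grouped by their titles into 6 groups of 2. The authors deposited signals, taken as log2 from their range (2.139 to 14.33). How they corrected background, summarised probes and normalised arrays is not given in the sources used here. Of 45101 probe sets, 64 are controls. Gene names came from GEO's platform annotation, with 34945 probe sets used that have 1 symbol, 932 with several symbols and 9160 unnamed ones left out. Entrez identifiers of 34741 were found in a RefSeq table (GRCm38.p6), changing 0 symbols. Hras and Trp53 were not analysed here.

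All 12 arrays entered a model of 6 group means in limma 3.58.1 (R 4.3.3) over the 23080 probe sets kept, with 6 residual degrees of freedom and 9.471 after moderation. P-values are 2-sided and adjusted by Benjamini-Hochberg over all kept probe sets, with a threshold of 0.05. Shares of all genes are over 12835 genes, each by its probe set with the highest mean. The fit was tested on simulated data. Figures were drawn with matplotlib 3.10.9. The members and lists were chosen with earlier results of these data known. Every probe set of the 10 genes is named. From the other lists up to 3 genes past the threshold with the smallest p are named per line, and Rbpj, Lfng, Hes6, Dll4, Jag2, Notch4, Numb and Dlk1 may be named anywhere. For likeness, up to 3 genes per member with the highest r are named. The number of arrays limits the precision.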

Additional observations from a re-analysis of the deposited data

Results flagged for a closer look

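A difference between 2 lines' changes from their own parents passed limma's test (adjusted p under 0.05) for these genes. Between OPCL61 and NSCL61 it was -3.32 ± 0.21 for Hes5 (log2 ± SE, adjusted p = 3.22e-06), -5.72 ± 0.38 for Dll3 (adjusted p = 5.25e-06), -2.51 ± 0.23 for Nrarp, -3.46 ± 0.53 for Notch1 and -3.22 ± 0.87 for Dll1. Between OPCL61 and ASTL61 it was -3.32 ± 0.21 for Hes5 (adjusted p = 5.35e-06), -5.30 ± 0.38 for Dll3 (adjusted p = 1.34e-05), -1.72 ± 0.23 for Nrarp (adjusted p = 0.000493) and -2.59 ± 0.53 for Notch1 (adjusted p = 0.00454). Between ASTL61 and NSCL61 it was -0.80 ± 0.23 for Nrarp. On the arrays of NSCL61, NSC, ASTL61 and AST, Hes5 and Dll3 lay near or under the median of all values.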

How the results depend on the processing

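With 22 alternatives, the changes of the 10 genes in the 3 lines and the differences between lines kept their side of the threshold in 1274 of 1307 cases, lost a call in 20, gained one in 13 and reversed in none. Many of these cases leave out an array of a group not compared, which cannot move the size of a difference. Others concern genes far from the threshold, so the total says little. The lost calls include the rises of Notch1, Dll1 and Hey1 in NSCL61. The falls of Hes5, Dll3, Nrarp and Notch1 in OPCL61 and the rise of Nrarp in NSCL61 passed under all 22, the Hes5 fall between -4.37 and -3.35. Leaving out 1 array, where the lone array of a group is assumed to vary like the others, gave 1 to 4 genes called in NSCL61 against NSC, 4 to 5 in OPCL61 against OPC, 0 in ASTL61 against AST, 0 to 1 in AST against NSC, 1 to 3 in OPCL61 against NSCL61, 1 to 2 in ASTL61 against NSCL61, 2 to 5 in OPCL61 against ASTL61, 0 to 2 for the change in ASTL61 against that in NSCL61, and 4 to 5 for the change in OPCL61 against that in ASTL61. ASTL61 against NSCL61, 2 genes, gave 1 with no filter, 1 with the replicate block and 5 with only the arrays compared. The change in ASTL61 against that in NSCL61, 1 gene, gave 2 with only the arrays compared. The cause was not tested.

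The replicate block called 4 genes in NSCL61, 5 in OPCL61 (Notch3 added at -1.18, adjusted p = 0.0487) and 0 in ASTL61. The numbers are not known to pair the arrays: same-numbered deviations correlated across genes at 0.072 for NSCL61 and NSC, 0.022 for OPCL61 and OPC and -0.030 for ASTL61 and AST. Hey1 in NSCL61 did not pass with only the arrays compared (adjusted p = 0.101). Low signals limit Hes5 and Dll3 outside OPC, and Notch3 in NSCL61, NSC, ASTL61 and AST. In OPCL61 the Notch3 arrays, at 6.99 and 5.09, were far apart. Leaving out arrays for the other pathway genes was chosen after seeing the data, and none of their calls reversed.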
